A study of Homo sapiens with 21 samples.

Results

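The sites described here were the promoters of SK-N-BE(2) cells, an established human neuroblastoma line that carries amplified MYCN. A site was taken as a promoter where the deposited annotation placed it in the class of promoters at a transcription start site (TSS). This rule gave 12403 of the 367900 consensus sites, or 3.37% of them, and they carried the names of 11316 genes. ATAC-seq reads out accessibility through the cuts that a loaded Tn5 transposase makes in open chromatin, and a more open promoter collects more reads. The 21 libraries formed 7 groups of 3 biological replicates, all collected 72 h after transduction with lentiviral particles carrying a short hairpin RNA (shRNA). The groups were Control (a non-silencing hairpin, per the study's methods), shARID1A.2 and shARID1A.4 (against ARID1A), shARID1B.2 and shARID1B.3 (against ARID1B), and shARID1A/B.2.3 and shARID1A/B.4.2 (against both genes). The Control cells were thus transduced as well, and every group was a transduced population of 1 cell line. The comparisons asked which promoters opened or closed on BAF disruption relative to the median promoter.

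Promoters are where RNA polymerase and the general transcription factors assemble, and in vertebrates they fall into a class rich in CpG dinucleotides, often used in all cells, and a class poor in CpG, often used in few cell types. The BAF complex is an ATP-dependent remodeller that moves or evicts nucleosomes, and ARID1A and ARID1B are alternative subunits that hold its structure together. BAF is known mainly for keeping distal enhancers open, while many CpG-rich promoters keep a nucleosome-free region by other means as well.

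The first 3 promoters that rose most and the first 3 that fell most after combined silencing, by the rule given below and with a RefSeq sequence on hand, are shown to let the composition of the DNA before each start be compared. Each line gives the 250 bases before the RefSeq start (GRCh38.p14), 5′ to 3′ on the strand of the gene, with each CpG dinucleotide in capitals. The windows are chr15:41620974-41621223 (MGA, plus strand), chr19:51948884-51949133 (HCCAT3, plus strand), chr19:2867085-2867334 (ZNF556, plus strand), chr4:5524319-5524568 (C4orf6, plus strand), chr11:35530301-35530550 (PAMR1, minus strand) and chr3:149703274-149703523 (WWTR1, minus strand). All but that of C4orf6 lay inside the site, whereas the C4orf6 window ended just before its site began.
MGA: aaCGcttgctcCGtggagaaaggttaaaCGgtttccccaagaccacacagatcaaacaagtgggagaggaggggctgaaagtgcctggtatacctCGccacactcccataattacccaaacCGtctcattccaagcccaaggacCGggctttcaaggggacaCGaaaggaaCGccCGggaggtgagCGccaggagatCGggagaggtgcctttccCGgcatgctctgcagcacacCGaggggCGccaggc
HCCAT3: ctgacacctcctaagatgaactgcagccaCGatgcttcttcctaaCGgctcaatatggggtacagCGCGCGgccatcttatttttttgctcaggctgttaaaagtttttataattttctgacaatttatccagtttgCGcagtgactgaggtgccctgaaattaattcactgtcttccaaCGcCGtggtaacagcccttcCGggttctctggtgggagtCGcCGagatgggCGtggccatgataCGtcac
ZNF556: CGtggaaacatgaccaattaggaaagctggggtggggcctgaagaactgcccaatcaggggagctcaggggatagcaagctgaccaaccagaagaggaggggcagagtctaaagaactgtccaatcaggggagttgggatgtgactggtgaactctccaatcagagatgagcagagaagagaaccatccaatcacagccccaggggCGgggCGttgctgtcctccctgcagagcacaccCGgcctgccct
C4orf6: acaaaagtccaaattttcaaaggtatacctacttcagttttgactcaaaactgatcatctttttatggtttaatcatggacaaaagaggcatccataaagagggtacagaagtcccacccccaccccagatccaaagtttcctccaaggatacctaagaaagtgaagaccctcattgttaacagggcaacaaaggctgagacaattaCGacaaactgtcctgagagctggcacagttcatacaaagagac
PAMR1: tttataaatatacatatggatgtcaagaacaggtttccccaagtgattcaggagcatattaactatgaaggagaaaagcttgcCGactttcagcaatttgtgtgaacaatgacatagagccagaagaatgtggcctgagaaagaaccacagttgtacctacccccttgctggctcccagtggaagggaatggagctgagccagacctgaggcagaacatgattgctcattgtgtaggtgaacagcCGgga
WWTR1: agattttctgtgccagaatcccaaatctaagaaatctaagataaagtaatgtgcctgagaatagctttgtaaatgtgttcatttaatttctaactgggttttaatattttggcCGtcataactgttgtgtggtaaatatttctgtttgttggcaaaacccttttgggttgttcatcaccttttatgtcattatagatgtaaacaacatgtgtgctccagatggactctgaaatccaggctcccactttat

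The windows of MGA and HCCAT3 held 14 and 13 CpG dinucleotides, and that of ZNF556 held 4. Those of C4orf6, PAMR1 and WWTR1, whose promoters closed, held 1, 2 and 1. The ratio of observed to expected CpG, which corrects for base composition, was 0.648, 0.86 and 0.199 in the former and 0.0942, 0.157 and 0.129 in the latter. ZNF556 thus rose from a window with few CpG, and its row of CCAAT boxes set it apart from the other windows shown.

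The libraries held 16140029 to 44472230 reads in sites, and promoters took 19.98 to 20.58% of these reads in Control and 20.92 to 25.06% in the silenced groups. Replicates of a group differed by more than counting noise over promoters in all 21 pairs, with a chi-square statistic of 1.13 to 8.24 per degree of freedom. The highest values belonged to the pairs that hold Control replicate 2 (3.73 and 5.17) or shARID1A/B.2.3 replicate 2 (8.24 and 7.45), so counts that rest on these libraries are also given without them. Among markers of the cell type, PHOX2A had a promoter at 26.7 CPM in Control, DBH at 11.4 and TH at 2.7, while no promoter of the haematopoietic markers PTPRC, CD3E and SPI1 was among the sites. Here CPM is the read count of a site scaled to library size, with the scaling set on promoters, and a group of cells with fewer open copies cannot be told apart from a weaker opening in each cell. ISL1, MYCN, PRRX1 and ARID1B had no site of the promoter class. An shRNA acts on the transcript and not on the gene's promoter, so the ARID1A promoter does not check the silencing. It measured 8.56, 6.12 and 8.06 CPM in Control, 9.54, 7.63 and 9.15 with shARID1A.2, 9.43, 8.8 and 8.01 with shARID1A.4, and 8.14 to 10.1 in the 6 combination libraries. These ranges overlapped, and the log2 change with the combinations was 0.24 ± 0.1 (SE, FDR = 0.0732, edgeR quasi-likelihood test). It passed the test at 0.46 when libraries were scaled by the trimmed mean of M-values (TMM) over all sites (FDR = 0.0014) and at 0.41 with abundance-trended offsets, which remove a trend of the change with read depth in each library (FDR = 0.000745).

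Of the 12310 promoters with enough reads to be tested, 1132 gained and 1260 lost accessibility with the combinations against Control, taken as the mean of both combinations and relative to the median promoter, at a false discovery rate (FDR) under 0.01 by the edgeR quasi-likelihood test with Benjamini-Hochberg adjustment over all tested sites. These were 9.2% and 10.2% of promoters, against 0.776% of all 357029 tested sites called higher and 15.6% called lower. Gains were small. The promoters that rose did so by a median log2 change of 0.31, and 74 of them rose by at least 0.5 and 3 by at least 1. Losses were deeper, with a median of -0.6, 760 promoters at or beyond -0.5 and 260 at or beyond -1. The split between gains and losses rests on the scaling. With TMM scaling over all sites the median promoter itself moved up by 0.23 on the log2 scale with the combinations, 78.3% of promoters lay above 0, and the counts became 4112 higher and 522 lower, or 5015 and 536 with total counts only. By library this shift was 0.2, 0.04 and 0.16 with shARID1A/B.2.3 and 0.31, 0.29 and 0.32 with shARID1A/B.4.2. The median site outside promoters moved by -0.2 relative to the median promoter. A promoter called lower here therefore closed relative to other promoters, and changes below are all of this kind.

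Each combination gave similar numbers. With shARID1A/B.2.3, 964 promoters were higher and 1123 lower (background over all sites 1.16% and 12.6%), and with shARID1A/B.4.2 the counts were 1089 and 1169 (0.84% and 14.8%). Single silencing moved fewer promoters. The mean of both ARID1A hairpins called 434 higher and 678 lower (0.344% and 9.44% of all sites), and that of both ARID1B hairpins called 534 and 557 (0.582% and 5.75%). Without Control replicate 2 these counts fell to 145 and 519 for ARID1A and to 228 and 368 for ARID1B, and the ARID1A gains were 265 without shARID1A.2 replicate 1 and 276 without shARID1A.4 replicate 1. By hairpin, 402 promoters were higher and 573 lower with shARID1A.2 (0.36% and 6.68% of all sites), 318 and 559 with shARID1A.4 (0.443% and 8.17%), 333 and 298 with shARID1B.2 (0.911% and 2.58%), and 765 and 771 with shARID1B.3 (1.17% and 8.11%). Of the 3 deepest libraries, 2 were from shARID1B.3. Compared directly, the combinations had 335 promoters higher and 530 lower than the mean of the 4 single-hairpin groups (0.345% and 8.51% of all sites).

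**Figure D1:**
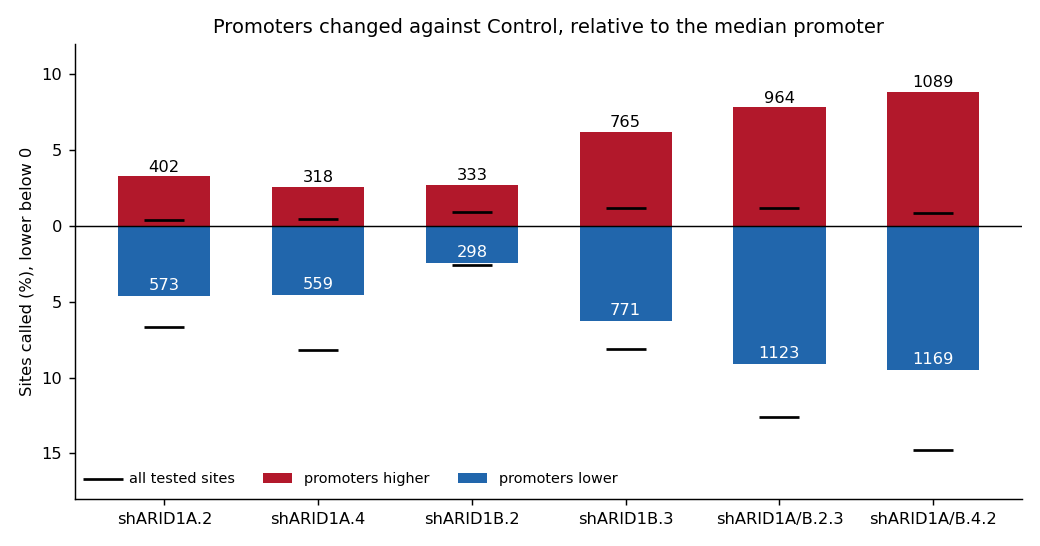
Percentage of the 12310 tested promoters called higher (red, above 0) or lower (blue, below 0) than Control in each silenced group, with the number of promoters on each bar and the percentage of all tested sites as a black line. Promoters were called higher more often than sites at large in all 6 groups, and lower less often.

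All comparisons with Control share its 3 libraries, so their values are set side by side without a measure of likeness. The 1132 promoters that rose with the combinations had a median log2 change of 0.3 with shARID1A/B.2.3, 0.33 with shARID1A/B.4.2, 0.22 with ARID1A silencing and 0.21 with ARID1B silencing. The 1260 that fell had medians of -0.6, -0.57, -0.39 and -0.29. Between the hairpins the fall was least with shARID1B.2 at -0.22.

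Promoters were ranked here among those called in the mean and with each combination or hairpin by itself, with at least 1 CPM on average and no overlap with the Control libraries, so that larger changes outside these limits are not in the order. By this rule that of MGA, a dimerisation partner of MAX in the MYC network, rose most with the combinations. It measured 6.34, 4.36 and 6.59 CPM in Control against 8.95, 6.76 and 8.91 with shARID1A/B.2.3 and 14.1, 14.1 and 14.6 with shARID1A/B.4.2. The combination libraries lay above the Control libraries, as the rule requires, and those of shARID1A/B.4.2 stood higher than those of shARID1A/B.2.3. The log2 change was 0.9 ± 0.11 (SE, FDR = 5.89e-11, edgeR), and it was 0.8 with ARID1A and 0.54 with ARID1B silencing. KLF11, a Krüppel-like transcription factor, had the same order of groups, with 15.6, 15 and 15.8 CPM in Control, 21.8, 19.1 and 18.3 with shARID1A/B.2.3 and 36.5, 32.5 and 35.7 with shARID1A/B.4.2. Its log2 change was 0.76 ± 0.07 (FDR = 2.61e-15, edgeR), or 0.45 once offsets for GC content were used. Of the single hairpins, shARID1A.4 opened it most, to 29.1, 29.1 and 25.5 CPM, whereas shARID1B.3 left it at 15.3, 16.2 and 15.3, inside or next to the Control range.

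The promoter of ABCG1, a transporter that exports cholesterol, rose in every silenced group. Control held 4.9, 5.04 and 5.98 CPM, the 12 libraries of single silencing held 6.59 to 9.72, and the combination libraries held 10.5, 8.91 and 9.95 with shARID1A/B.2.3 and 8.84, 9.05 and 7.74 with shARID1A/B.4.2. No silenced library reached down to the Control range, and the log2 change with the combinations was 0.78 ± 0.1 (FDR = 1.26e-09, edgeR). PDPK1, the kinase that activates AKT, rose by 0.72 (FDR = 6.06e-10) from 9.79, 7.34 and 9.97 CPM to 14.1 to 15.6 over the combination libraries. CRTC1, a coactivator of CREB, rose by 0.7 (FDR = 6.34e-08) from 5.67, 4.8 and 7.2 CPM to 8.35 to 10.6. The remaining members of the 10 largest rises were 2 zinc finger genes, ZNF729 (0.86) and ZNF556 (0.81), the non-coding HCCAT3 (0.86), and the uncharacterised LOC100653233 (0.89) and LOC102724377 (0.72). ZNF729 went from 1.55, 1.52 and 1.82 CPM in Control to 3.16, 3.85 and 2.78 with shARID1A/B.2.3 and 2.75, 2.21 and 3.03 with shARID1A/B.4.2, while its change with ARID1A silencing (0.36, FDR = 0.201) or ARID1B silencing (0.21, FDR = 0.545) did not pass the test. Among called promoters of at least 1 CPM it also had the largest gain of the combinations over single silencing, at 0.57 (FDR = 2.69e-05, edgeR).

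The deepest loss was at LOC285692, a non-coding gene, which fell by 2.87 on the log2 scale (SE 0.13, FDR = 5.4e-33, edgeR). Control held 12.9, 12.6 and 10.8 CPM and the combinations 2.06, 1.82 and 1.43 (shARID1A/B.2.3) and 1.63, 1.54 and 1.35 (shARID1A/B.4.2). Single silencing lay between, at 1.07 to 3.15 CPM over the ARID1A libraries and 3.04 to 6.75 over the ARID1B libraries. C4orf6, an uncharacterised gene, fell by 2.58 (SE 0.11, FDR = 7.01e-35), from 13.1, 12.6 and 10.4 CPM in Control to 2.31, 2.18 and 2.26 and to 1.47, 2 and 1.89. ARID1A silencing took it to 4.01 to 5.16 CPM, and the ARID1B libraries held 7.68 to 11.3, overlapping Control, with a log2 change of -0.31 (FDR = 0.0214). It was the promoter that the combinations closed most beyond single silencing, with a difference of -1.71 (FDR = 3.1e-27). PAMR1, a secreted peptidase-like protein, fell by 2.49 (SE 0.1, FDR = 1.92e-35), from 14.5, 15.6 and 15.5 CPM to 3.1, 3.47 and 2.61 and to 2.15, 2 and 2.87.

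**Figure D2:**
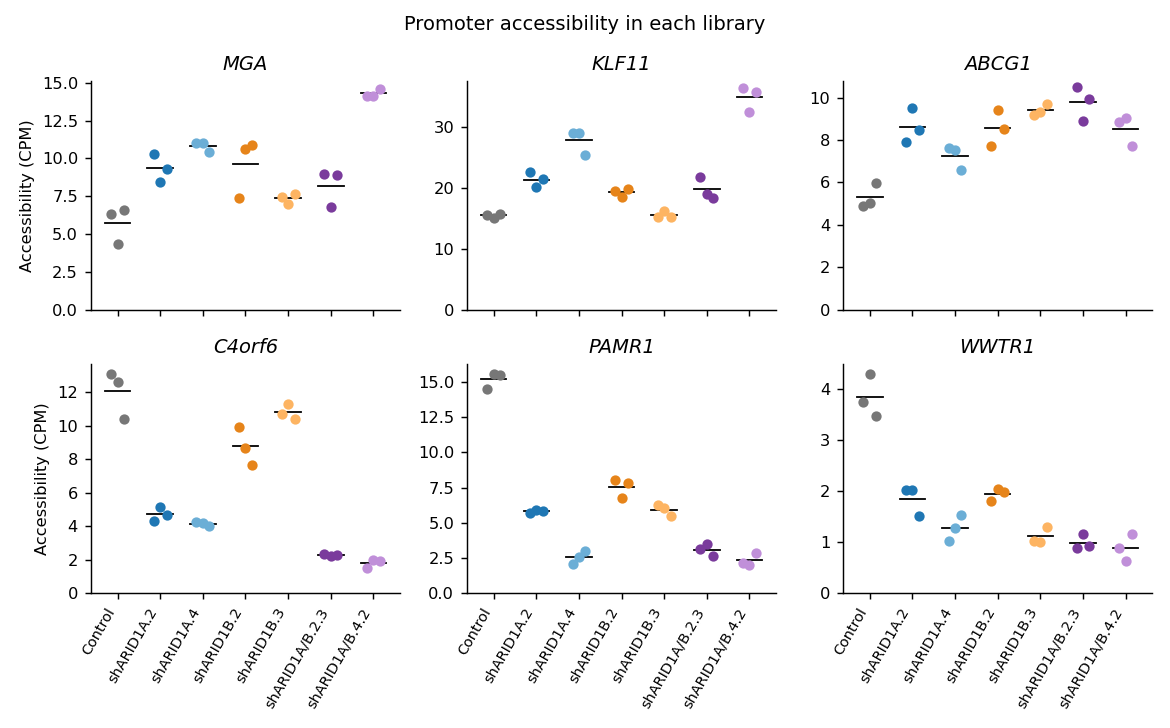
Accessibility (CPM, scaled on promoters) of 3 promoters that opened and 3 that closed with the combinations, with each point a library and each line the mean of its group of 3. MGA and KLF11 stood highest with shARID1A/B.4.2, ABCG1 was above Control in every silenced library, and C4orf6 was low with ARID1A silencing and the combinations but near Control with ARID1B silencing.

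WWTR1, which encodes the Hippo pathway coactivator TAZ, and MC2R, the receptor of adrenocorticotropic hormone, were among the 10 deepest losses as well. The site that carries the name of WWTR1 lay nearest to the start of the antisense gene WWTR1-AS1. WWTR1 fell by 2.02 (FDR = 3.55e-17, edgeR) from 3.76, 4.31 and 3.47 CPM to 0.886, 1.16 and 0.913 and to 0.876, 0.626 and 1.15. MC2R fell by 2.15 (FDR = 3.47e-18) from 4.23, 5.29 and 3.64 CPM to 1.08, 1.19 and 1.22 and to 0.836, 0.751 and 0.902. Both were lowered by single silencing too, WWTR1 to between 0.991 and 2.05 CPM and MC2R to between 0.678 and 3.07. TAC3, the precursor of neurokinin B, fell by 2.5 (FDR = 2.09e-23) from 5.15, 3.92 and 5.9 CPM to 0.633 to 1.07 over the combination libraries. The others were LOC102724605 (-2.24), MTMR9 of the myotubularin family (-2.2), the adaptor SH2D3C (-2.16) and LOC101927238 (-2.07). The nearest GENCODE start lay over 3000 bases from the centre of 5 of these 10 sites, at 4803 bases for TAC3, 4172 for LOC102724605, 3229 for SH2D3C, 3170 for MTMR9 and 77439 for LOC101927238, so these were promoters by the deposited annotation only. Of the 10 rises, LOC102724377 was such a site, at 3322 bases. Every one of the 10 falls had an observed to expected CpG ratio over the site of 0.332 or less.

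A small set of promoters was called in the same direction in all 6 silenced groups, 15 higher and 71 lower of 12310. All 6 comparisons use the same Control libraries, and the share of all tested sites that meet this condition was not counted. In each group more of all tested sites were called lower than higher, so the split is not read as particular to promoters. The genes named here were chosen after their values were seen. DDIT4, an inhibitor of mTORC1 signalling, held 33.9, 31 and 33.6 CPM in Control and 38.3 to 46 in the silenced libraries, and RAB3A, a GTPase of synaptic vesicles, held 26.5, 26.2 and 30.2 against 32.2 to 41. Neither gene's silenced libraries overlapped Control, and their log2 changes with the combinations were 0.41 and 0.48 (FDR = 1.63e-08 and 8.2e-10, edgeR). TTC3, a ubiquitin ligase on chromosome 21, rose by 0.44 (FDR = 4.08e-09). Among the promoters that closed in all groups, PEA15, a phosphoprotein that binds ERK, went from 22.2, 22.9 and 22.3 CPM to 12.4 to 16.3 with single silencing and 8.4 to 9.68 with the combinations, a log2 change of -1.31 (FDR = 1.75e-27). The collectin gene COLEC11 fell by 0.85 (FDR = 3.44e-25) from 92.7, 105 and 90.8 CPM to 45.5 to 60.7 over the combination libraries. Others of this set were FYN, a Src family kinase, KCNK2, a potassium channel, and SLC6A3, the dopamine transporter. TWIST1, a transcription factor of the mesenchymal programme, went from 45.6, 50.5 and 41.8 CPM to 30.9 to 43.2 over the silenced libraries, which overlapped Control, with a log2 change of -0.32 (FDR = 2.71e-05) that became -0.09 (FDR = 0.44) with TMM over all sites. The kinetochore gene CENPL behaved alike, at -0.36 (FDR = 1.64e-07) and -0.13 (FDR = 0.186) with TMM.

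Promoters that opened were richer in CpG than those that closed. The median observed to expected ratio over the site was 0.779 among promoters that rose, 0.317 among those that fell and 0.655 over all tested promoters. The sets also differed in annotation. A GENCODE start lay within 1000 bases of the centre of 98.7% of sites that rose and 85.6% of those that fell, against 91.8% of all. Of the 1014 sites without such a start, 1.48% rose and 17.9% fell, and of the 11296 with one, 1117 rose and 1078 fell. With the combinations, 19.2% of the 1434 promoters with a ratio under 0.2 fell and 0.209% rose, and of the 1980 with a ratio of 0.2 to 0.4, 24.1% fell and 0.707% rose. From 0.4 to 0.6 the shares were 10.8% and 4.48% (1720 promoters), and from 0.6 to 0.8 they were 5.05% and 11.3% (4949 promoters). Above 0.8, 3.19% of 2227 promoters fell and 21.4% rose. Leaving out any single library kept the share that fell at 18 to 22.6% of promoters with a ratio under 0.4 and the share that rose at 16.2 to 23% of those above 0.8. With TMM over all sites these shares were 12.9% and 61.3%, and with abundance-trended offsets they were 15.8% and 19.5%, where 11.8% of promoters above 0.8 also fell.

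GC content and read depth moved with this ratio. GC content was 64.8% at the median of promoters that rose and 54.9% at that of promoters that fell, and the mean accessibility was 23.5 and 7.03 CPM, against 59.1% and 12.3 CPM over all. In a fit with offsets for GC content per library, 16% of promoters with a ratio under 0.2 fell and 1.32% rose, while above 0.8 the shares were 6.56% and 10%. The median log2 change of promoters with a ratio under 0.2 was -0.25 without these offsets and -0.12 with them, and that of promoters above 0.8 was 0.1 and 0.04. Among promoters of 5 to 20 CPM only, 54.2% of those with a ratio under 0.2 fell and 1.67% rose, against 2.29% and 23.4% above 0.8. Among promoters of 45 to 55% GC only, the shares were 15.7% and 0.452% under 0.2 but 7.09% and 4.26% above 0.8, or 2.13% and 20.6% with the GC offsets. Across the 12310 promoters, the Spearman correlation with the log2 change was 0.43 for the CpG ratio, 0.35 for GC content and 0.32 for log2 mean CPM, and 0.21, -0.06 and 0.21 with the GC offsets. The promoters of one such correlation share all libraries and are not replicates.

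**Figure D3:**
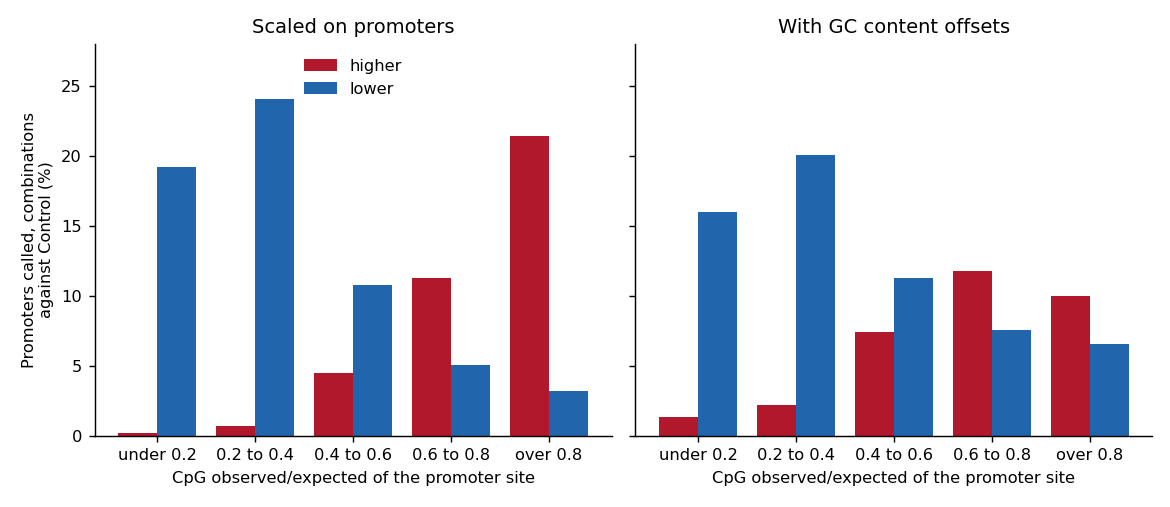
Percentage of promoters called higher (red) or lower (blue) with the combinations against Control in 5 classes of the observed to expected CpG ratio, without (left) and with (right) offsets for GC content. CpG-poor promoters were called lower in both fits, and the 21.4% of promoters above 0.8 that were called higher became 10% with the offsets.

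Motifs were counted on both strands in RefSeq windows of 300 bases, available for 7452 tested promoters. GGGCGG, the core of a GC box, was in 83.1% of windows of promoters that rose, 47% of those that fell and 66.5% of all. TGANTCA, the AP-1 element, was in 3.25%, 10.8% and 4.82%, and CAGATG, an E-box, in 6.24%, 19.5% and 10.5%. CCGGAAG, the ETS core, was in 18.5%, 6.49% and 15.8%, and the CCAAT box in 43.6%, 32.6% and 36.9%. Base composition also differed between these sets. Among windows with a CpG ratio under 0.4, taken over the window and not over the site, TGANTCA was in 17.6% for promoters that fell against 13.3% of all. CAGATG was in 30.7% against 24.3%, and TATAAA in 13.4% against 14.2%. CCGGAAG was in 1.72% against 1.95%, CCAAT in 36.6% against 38%, and GGGCGG in 18.6% against 15.4%. Among windows with a ratio of at least 0.6, CCGGAAG was in 19.1% for promoters that rose against 19.5% of all. There CCAAT was in 44% against 36.5%, and GGGCGG in 84.5% against 78.9%. The ETS core thus differed little within a CpG class.

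The share of promoters that rose with the combinations differed by chromosome. It was 28% on chromosome 18, 26.9% on 21, 24.3% on 22, 19.7% on 20, 19.1% on 19 and 18.7% on 16, against 3.3% on chromosome 1 and 3.43% on chromosome 6. On chromosome 18 the median promoter changed by 0.15 on the log2 scale and the median site outside promoters by -0.37, and on chromosome 19 the values were 0.15 and 0.03. Median GC content of promoters was 60.7 to 62.7% on chromosomes 16 and 18 to 22 and 58.3% and 55.4% on chromosomes 1 and 6. With the GC offsets, 20.7% of promoters on chromosome 18 and 5.56% on chromosome 1 rose. Among promoters with a CpG ratio of 0.6 to 0.8 only, the median log2 change was 0.14 on chromosome 18 (66 promoters), 0.22 on chromosome 22 (117) and -0.01 on chromosome 1 (488).

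ARID1A and ARID1B silencing were compared directly, each as the mean of both hairpins. The ARID1A groups had 269 promoters higher and 446 lower than the ARID1B groups, against 0.76% and 4.43% of all tested sites. DBH, which converts dopamine to noradrenaline, was an example. Its promoter held 12.2, 10.3 and 11.8 CPM in Control, 7.27, 7.5 and 8.87 with shARID1A.2, 7.62, 7.39 and 7.27 with shARID1A.4, and 10 to 14.7 in the ARID1B libraries. The ARID1A libraries lay below and the ARID1B libraries around the Control values, and the difference was -0.63 (FDR = 2.1e-10, edgeR). With the combinations DBH fell by 0.67 (FDR = 2.22e-09). By the ranking rule given above, ZFR2, a zinc finger protein gene, rose most with ARID1A silencing, by 1.07 ± 0.21 (FDR = 4.82e-05), from 1.13, 1.08 and 1.47 CPM to 2.82, 2.24 and 2.53 and to 2.38, 2.83 and 2.9, and HOXA4 rose by 0.87 (FDR = 1.87e-06) from 2.89, 2.3 and 2.51 CPM to 3.94 to 5.75. The change of these genes with ARID1B silencing was 0.24 (FDR = 0.579) and 0.24 (FDR = 0.354), and the differences between the genes silenced were 0.83 and 0.63. Both genes were selected by their ARID1A change, which enters that difference, so it is given without a test. The deepest falls by the same rule with ARID1A silencing were LOC285692 (-2.47), PAMR1 (-2), TAC3 (-1.61), TMEM204 (-1.51) and CLIC2 (-1.5). With ARID1B silencing they were LOC102724247 (-1.51), MC2R (-1.49), WWTR1 (-1.4), SH2D3C (-1.4) and TAC3 (-1.39).

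By this rule the 5 largest rises with ARID1B silencing were all at transfer RNA (tRNA) genes, which are short, exist in many copies and are read by RNA polymerase III. TRNAP12 on chromosome 16 held 4.38, 3.18 and 5.29 CPM in Control, 12, 13.1 and 11.3 with shARID1B.2 and 6.81, 6.17 and 5.6 with shARID1B.3, a log2 change of 1.01 ± 0.13 (FDR = 1.51e-09, edgeR). TRNAS15 in the tRNA cluster of chromosome 6 held 6.91, 7.2 and 6.85 CPM in Control, 12.5, 12.2 and 14.1 with shARID1B.2, 11.5, 12.7 and 12.7 with shARID1B.3, and 4.56 to 7.31 in the ARID1A libraries. The ARID1B libraries of both genes stood above Control, as the rule requires. With ARID1A silencing TRNAP12 changed by -0.03 (FDR = 0.922) and TRNAS15 by -0.33 (FDR = 0.015). TRNAK26, TRNAP5 and TRNAT16 rose by 0.99, 0.95 and 0.83.

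After these values were seen, all 165 promoters that carry the name of a tRNA gene were gathered. With ARID1B silencing 51 of them rose and 1 fell, against 4.34% and 4.52% of all promoters. With ARID1A silencing 1 rose and 14 fell (3.53% and 5.51% of all promoters), or 7 and 8 with TMM over all sites. With the combinations 5 rose and 12 fell, both shares below those over all promoters (9.2% and 10.2%), and the direction turned to 39 and 5 with TMM and to 15 and 8 with GC offsets. The ARID1B rises that prompted this set enter the direct comparison of the genes silenced, so its counts are a description only. There, ARID1A silencing had 0 of 165 higher and 89 lower than ARID1B silencing by edgeR (2.19% and 3.62% of all promoters). By DESeq2 the counts were 0 and 84. Of the 165, 10 lay above 0, with a median difference of -0.35 against 0 over all promoters. Their median level was 6.91, 7.39 and 7.07 CPM in Control, 9.48, 9.53 and 9.77 with shARID1B.2 and 8.88, 9.07 and 8.56 with shARID1B.3, and 5.57 to 7.74 in all other libraries. By hairpin, 59 of 165 were higher with shARID1B.2 and 23 with shARID1B.3, against 2.71% and 6.21% of all promoters. With shARID1A.4, 21 were lower, against 4.54% of all promoters. The 8 lower with shARID1A.2 were near the share over all promoters (4.65%). The gain with ARID1B silencing ranged from 41 to 79 promoters over the other scalings and tests, and was 33 without Control replicate 1 or without Control replicate 3, while the number lower in the direct comparison ranged from 75 to 94. Many tRNA genes are near-identical, so the promoter to which a read belongs is uncertain, and how reads with several matches were placed is not given in the sources used here.

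**Figure D4:**
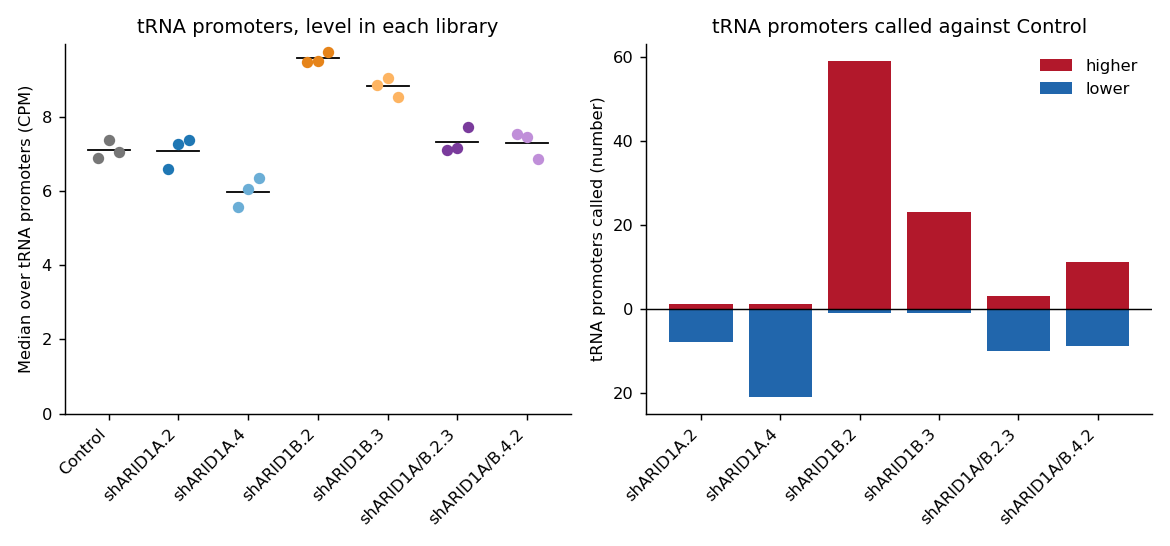
Left, median accessibility (CPM) over the 165 tRNA gene promoters in each library, with lines at group means. Right, numbers of these promoters called higher or lower than Control in each silenced group. The 6 ARID1B libraries lie between 8.56 and 9.77 CPM, above all other libraries.

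Some promoters followed single hairpins rather than genes. The combinations differed from each other at 536 promoters that were higher and 586 that were lower with shARID1A/B.2.3 than with shARID1A/B.4.2 (3.34% and 1.78% of all sites). The largest difference, chosen here after its value was seen, was at ARHGEF2, an exchange factor of RhoA, with -2.68 ± 0.14 (FDR = 4.17e-28, edgeR). Control held 2.42, 1.57 and 1.99 CPM, shARID1B.2 11.3, 11.3 and 11.2, shARID1A/B.4.2 11.5, 11.8 and 11.1, and shARID1A.4 5.45, 5.09 and 5.98, while the libraries of shARID1A.2, shARID1B.3 and shARID1A/B.2.3 held 1.39 to 2.22. This site was thus open with the hairpins numbered in the name of shARID1A/B.4.2 and near its Control level with the others. MIR3189, a microRNA within the stress gene GDF15, had the same pattern, with 0.832 to 0.979 CPM in Control, 4.06, 3.71 and 4.02 with shARID1A/B.4.2, 1.8, 1.77 and 1.85 with shARID1A.4, 2.17, 2.74 and 1.83 with shARID1B.2, and 0.551 to 1.04 in the rest. C1orf158 was likewise higher with shARID1A/B.4.2 (6.25, 6.47 and 7.17 CPM) than with shARID1A/B.2.3 (1.39, 1.57 and 1.56), around a Control level of 4.99 to 5.62. TM4SF4, a membrane protein gene, went the other way, with 10.8, 14.6 and 11.6 CPM with shARID1A/B.2.3, 4.3, 3.96 and 4.79 with shARID1A/B.4.2, and 11.3, 15.7 and 12.8 in Control. At such promoters the mean of the combinations hides a difference between hairpins, and off-target effects of a hairpin and unequal silencing cannot be told apart here.

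Gene lists were read against all promoters, of which 9.2% rose and 10.2% fell with the combinations at a median of 0.01. These shares are not matched for CpG ratio or read depth. Of all promoters of 20 to 50 CPM, 16.5% rose and 6.56% fell, and the median level was 33.4 CPM in the stress list and 33.8 in the cholesterol list. Whether a list differed from promoters of like composition and depth was not tested. Immediate-early and stress genes had the highest median, 0.2, with 9 of 20 promoters higher and 1 lower (16 and 0 with TMM over all sites, 7 and 1 with abundance-trended offsets). The members that rose were GADD45B (0.52), the mTORC1 inhibitor DDIT4 (0.41), ATF4 (0.42), TRIB3 (0.48), ASNS (0.29), EGR1 (0.23), NR4A3 (0.25) and 2 sites of NR4A1 (0.46 and 0.44), while another NR4A1 site fell by 0.62. GADD45B, a stress sensor, held 13.2, 12.9 and 15.1 CPM in Control, 23.1, 22.6 and 21.6 with shARID1A/B.2.3 and 17.8, 17.5 and 16.5 with shARID1A/B.4.2. None of its combination libraries overlapped Control. Cholesterol synthesis genes had 5 of 20 promoters higher and 0 lower by edgeR (18 and 0 with TMM, 2 and 0 with trended offsets), among them MVK (0.33), which encodes mevalonate kinase.

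Among genes of chromatin, 5 of 25 promoters of Polycomb complex genes rose and 0 fell (16 and 0 with TMM, but 1 and 2 with GC offsets), led by RYBP, a subunit of PRC1, at 0.5. The median CpG ratio of this list was 0.84, and of all promoters above 0.8, 21.4% rose and 3.19% fell, so its counts were near that share. RYBP held 20.7, 20.7 and 20.6 CPM in Control and 27.9 to 31.4 over the combination libraries, with no overlap. BAF, PBAF and ncBAF subunit genes had 4 of 20 higher and 2 lower (0 and 3 with GC offsets, 0 and 2 without Control replicate 2). Their deepest fall was GLTSCR1L, a subunit of ncBAF, at -1.15 (FDR = 1.68e-09, edgeR), from 4.23, 4.01 and 3.77 CPM to 1.32 to 2.31. Replication-dependent histone genes had 6 of 24 higher and 1 lower with the combinations (2 and 1 with trended offsets, 12 and 1 with GC offsets), and 12 and 0 with ARID1B silencing, with which 4.34% of all promoters rose and 4.52% fell. HIST2H2BE held 49.8, 48.6 and 49.7 CPM in Control and 63 to 69.1 in the ARID1B libraries, with a log2 change of 0.4 (FDR = 1.27e-08).

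Lists of housekeeping genes came next. Mitochondrial complex I genes had 7 of 28 higher and 1 lower (5 and 6 with trended offsets), cytosolic ribosomal protein genes 9 of 67 and 1 (0 and 0 by edgeR without Control replicate 2), proteasome genes 4 of 22 and 1 (2 and 3 with trended offsets), and mitochondrial ribosomal protein genes 2 of 40 and 1. The last list stood below the background in both directions, but had 18 higher with TMM over all sites, where 4112 of 12310 promoters were higher, and 6 with GC offsets, where 995 were. Zinc finger ZNF genes had 30 of 294 higher and 13 lower, close to the background for gains. Of the cell cycle lists, G1 regulators had 1 of 19 higher and 2 lower, DNA replication genes 1 of 24 and 1, and mitosis genes 1 of 21 and 1, all with medians of -0.06 to 0.04. With TMM over all sites they had 5 and 0, 13 and 0, and 8 and 0. Cyclin E1 (CCNE1) was the G1 regulator that rose, by 0.49 (FDR = 1.69e-08, edgeR), from 22, 21.1 and 22.5 CPM to 27.6 to 34, but by 0.23 (FDR = 0.0111) with GC offsets. POLD2, a subunit of DNA polymerase delta, rose by 0.21, but by 0.06 with trended offsets. A site named for the phosphatase gene CDC25B, nearest to the start of CENPB, rose by 0.28, but by 0.02 with GC offsets. The calls of POLD2 and CDC25B were lost in 6 and 8 alternatives. Those that fell were RBL1 (-0.39), a site named for PMEL nearest to the start of CDK2 (-0.38), SPC25 (-0.31) and RRM2 (-0.23). None of those that fell was called with TMM over all sites. The promoter of cyclin D1 (CCND1) changed by 0.15 (FDR = 0.18), and by 0.38 with TMM, which passed the test (FDR = 0.00169).

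The counts of neuronal, adrenergic and mesenchymal genes turned from more losses to more gains with TMM over all sites. Catecholamine and chromaffin genes had 0 of 9 higher and 4 lower by edgeR (1 and 1 with TMM over all sites), namely the vesicular transporters SLC18A1 (-0.81) and SLC18A2 (-0.36), DBH (-0.67) and DDC (-0.39), while TH, the first enzyme of the pathway, changed by 0.19 (FDR = 0.454). Neuronal genes had 3 of 20 higher and 6 lower (8 and 3 with TMM). ELAVL2, a neuronal RNA-binding protein, fell by 1.55 (FDR = 1.03e-30), from 23.3, 26 and 21.2 CPM to 6.48, 7.8 and 6.61 and to 9.39, 8.89 and 9.34, and ELAVL4 by 0.66, while ELAVL3 rose by 0.4. Adrenergic core transcription factors had 1 of 18 higher and 2 lower (6 and 0 with TMM, 0 and 0 without Control replicate 2), near the shares over all promoters, and the sites of HAND2-AS1, which starts beside HAND2, and GATA3 changed by -0.06 and -0.07 (FDR = 0.572 and 0.505). Mesenchymal transcription factors had 2 of 16 higher and 3 lower (6 and 2 with TMM), with WWTR1 (-2.02), ZEB2 (-0.6) and TWIST1 lower and FOSL2 (0.3, but 0.01 with trended offsets) and ID1 (0.28) higher.

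Of the adhesion and matrix lists, collagen and laminin genes had 0 of 28 higher and 7 lower by edgeR (1 and 2 with TMM), led by COL22A1 at -0.83 (FDR = 3.16e-14), from 15.9, 14.4 and 14 CPM to 7.52 to 8.89. Integrin genes had 0 of 13 higher and 4 lower (1 and 0 with TMM, 0 and 2 without Control replicate 2), namely ITGAV (-1.28), ITGAD (-0.69), ITGA5 (-0.46) and ITGA1 (-0.29). The ITGAV call was lost without Control replicate 2 (-0.97, FDR = 0.08). Cadherin genes had 1 of 9 higher and 2 lower (1 and 1 with TMM), and clustered protocadherins 0 of 11 and 1 (1 and 0 with TMM). Of 6 promoters of genes that the study named for invasiveness, which it chose with these samples and which are not independent evidence, 0 rose and 2 fell (2 and 0 with TMM). ITGAV and CDH5 were those that fell.

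**Figure D5:**
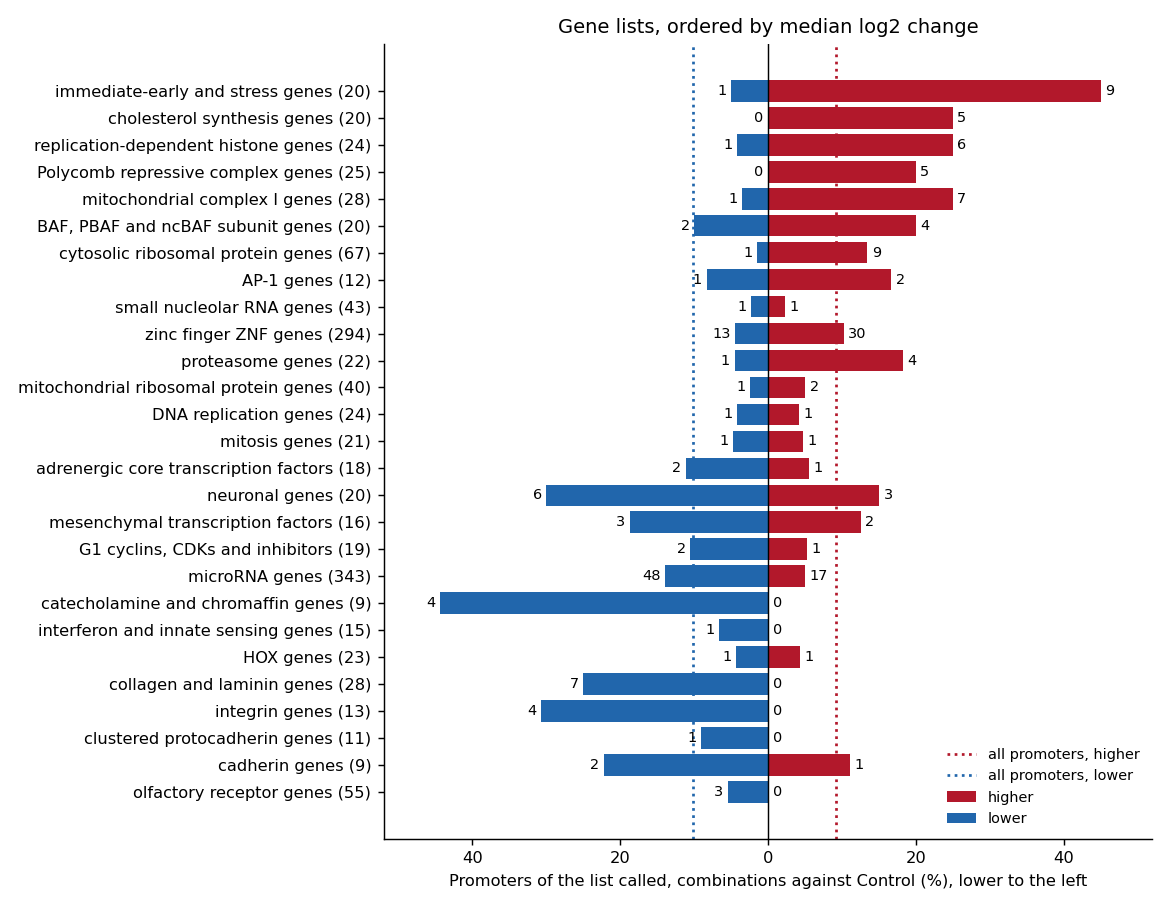
Percentage of promoters in each gene list called higher (red) or lower (blue) with the combinations against Control, with the number called on each bar, the number of promoters in brackets and the shares over all promoters as dotted lines. Stress, cholesterol and histone genes lie at the top of the order by median log2 change, and adhesion, matrix and olfactory receptor genes at the bottom.

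The remaining lists are read against the same shares over all promoters, 9.2% higher and 10.2% lower. AP-1 genes had 2 of 12 higher and 1 lower, HOX genes 1 of 23 and 1, interferon and innate sensing genes 0 of 15 and 1, small nucleolar RNA genes 1 of 43 and 1, and olfactory receptor genes 0 of 55 and 3. microRNA genes had 17 of 343 higher and 48 lower (61 and 24 with TMM). Of the markers of other cell types, both endothelial promoters, TEK (-0.72) and CDH5 (-0.67), were called lower (neither with TMM), from Control levels of 3.11 and 2.31 CPM, and none of 3 epithelial promoters was called by edgeR. The part of other cell types in these changes was not tested.

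The MYCNOS promoter, antisense at the amplified MYCN locus, had the most reads, with a mean of 5025 CPM and 1.64 to 2.75% of all promoter reads. It held 6161, 5550 and 6117 CPM in Control, 4460, 3970 and 4590 with shARID1A/B.2.3 and 4170, 4244 and 4331 with shARID1A/B.4.2. The combination libraries lay below Control, with a log2 change of -0.47 ± 0.04 (FDR = 6.81e-19, edgeR). Copies of the locus add up in this value, and the number of copies and their accessibility cannot be told apart. PGK1, a glycolytic enzyme gene, was next at 436 CPM, where the 99th percentile of promoters was 84 CPM. It held 417, 461 and 344 CPM in Control, 525, 706 and 517 with shARID1A/B.2.3 and 403, 404 and 388 with shARID1A/B.4.2, and its log2 change was 0.24 (FDR = 0.000771) but -0.33 with abundance-trended offsets. Its change was 0.13 (FDR = 0.135) without Control replicate 3 and 0.08 (FDR = 0.51) with GC offsets, and DESeq2 did not call it (FDR = 0.0916). Lentiviral vectors often carry the human PGK1 promoter, and reads from a vector and from the gene cannot be told apart. Of the 5 promoters that common shRNA vectors carry, 2 were called higher with the combinations by edgeR, PGK1 and a site beside the U6 gene RNU6-9 that carries the name of MED16 (0.36, FDR = 0.00993). The MED16 call was lost in 19 alternatives, among them DESeq2 (FDR = 0.03) and the fit without Control replicate 2 (0.26, FDR = 0.13).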

How the data were processed

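ATAC-seq was performed in triplicate in SK-N-BE(2) cells 72 h after lentiviral transduction, in 7 groups of 3 libraries. The authors deposited, for each silenced group against Control, a raw read count per library at each of 367900 consensus sites (GRCh38, per the submitters' processing notes, which also name DESeq2). For the aligner, the peak caller and any Tn5 shift, the choice is not given in the sources used here. Columns of normalised counts and of the authors' own comparisons were not used, 0 columns belonged to another series, and the repeated Control columns held identical counts. Promoters were named by the gene in the deposited annotation, which was also the gene of the nearest start at 10226 of 12403 sites (82.4%).

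Counts were tested with edgeR 4.0.16 (glmQLFit and glmQLFTest, R 4.3.3) after filterByExpr (minimum count 10), which kept 357029 sites and 12310 promoters. Libraries were scaled by their median ratio over tested promoters. All groups entered 1 model without covariates, and adjusted p-values (FDR, Benjamini-Hochberg, over all tested sites) under 0.01 gave calls. The common biological coefficient of variation was 0.0849. SEs were derived from the test statistic. Depth was 16140029 to 44472230 reads per library, and low promoters carry more counting error. The procedure was tested on simulated data. DESeq2 1.42.0 was an alternative.

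The promoters, the 32 gene lists and the tests were chosen with earlier results of these data known. Named promoters were the 10 largest rises and falls with the combinations (5 for each single gene), called in the mean and in each component, with at least 1 CPM and no overlap with Control libraries, 3 each way for combined against single silencing, up to 3 per gene list by p-value, and fixed genes of the cell type. Others are stated to have been chosen after their values were seen. Same-numbered replicates did not deviate together throughout (63 pairs, correlation -0.35 to 0.51, median 0.03, 18 over 0.1), so they were not treated as paired. Of 126 pairs with unlike numbers, 18 were over 0.1. Same-numbered pairs of Control correlated at 0.18, 0.51 and 0.25 with shARID1A/B.2.3 and at -0.01, 0.12 and 0.04 with shARID1A/B.4.2. Fits with a replicate block are given in the closing section. Sequences and motif windows were from RefSeq (GRCh38.p14), which matched 7467 of 12403 promoters, and symbols matched for 11150. CpG and GC content were computed over each site, and the CpG ratio also over each motif window and each printed sequence. Alternative scalings, filters, thresholds, members and libraries were tried as listed in the closing section. Libraries are biological triplicates of 1 line, so p-values measure the spread between cultures.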

Additional observations from a re-analysis of the deposited data

Results flagged for a closer look

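Of 34 promoters named by size of change, 15 had an FDR under 0.01 in the direct edgeR test of ARID1A against ARID1B silencing. Over all promoters, 715 of 12310 did so (5.81%). Promoters ranked by their ARID1A or ARID1B change were picked by values that enter this difference, so the count is a description only. Since ARID1A and ARID1B silencing are read against the same Control, only the direct difference (ARID1A minus ARID1B, log2) is given. ARID1A silencing left higher accessibility at ZFR2 (0.83), HOXA4 (0.63), ZNF556 (0.5), KLF11 (0.5), LOC100653233 (0.44) and LOC102724605 (0.32), the last of which fell less with ARID1A than with ARID1B silencing. It left lower accessibility at C4orf6 (-1.13), LOC285692 (-1.1), PAMR1 (-0.82) and RFPL1 (-0.67). All 5 tRNA gene promoters named for their rise with ARID1B silencing were among those that differed, namely TRNAK26 (-1.22), TRNAS15 (-1.19), TRNAP5 (-1.18), TRNAP12 (-1.04) and TRNAT16 (-0.77), and these 5 were selected by their ARID1B change, which enters the difference. ZFR2, HOXA4, ZNF556, LOC285692 and PAMR1 were likewise selected by their ARID1A change, the last 3 also by their change with the combinations. RFPL1, a gene of the ret finger protein-like family, had 0.825, 1.13 and 1.52 CPM in Control, 0.736 to 2.46 CPM over the 12 libraries of single silencing and 0.304 to 0.697 over the 6 combination libraries (combined against single silencing -1.5, FDR = 2.4e-10, edgeR). The cause of these differences was not tested.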

How the results depend on the processing

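Counts of promoters called with the combinations (1132 higher, 1260 lower) were 4112 and 522 with TMM over all sites, 5015 and 536 with total counts only, 1784 higher at an FDR under 0.05, 74 and 760 under a size limit of 0.5 on the log2 change, and 688 lower within 500 bases of a start. For ARID1A silencing (434 and 678), in the same order, they were 2197 and 246, 3020 and 276, 966 and 1102, 29 and 374, and 350 lower. For ARID1B silencing (534 and 557) they were 1148 and 148, 1726 and 202, 998 and 1005, 59 and 176, and 331 lower. Promoters changed between the combinations and single silencing (865) were 2135 with total counts, 1541 at an FDR under 0.05, 206 with the size limit and 482 within 500 bases, and those between ARID1A and ARID1B silencing (715) were 1201, 226 and 473 under the last 3. Against Control, shARID1A/B.2.3 (2087) gave 4131 with total counts, 864 with the size limit, 1308 within 500 bases and 1127 with only the compared groups fitted. shARID1A/B.4.2 (2258) gave 5286 with TMM over all sites, 5457 with total counts, 3524 at an FDR under 0.05, 898 with the size limit and 1477 within 500 bases. In the last 4 settings shARID1A.2 (975) gave 2175, 1746, 365 and 594, shARID1A.4 (877) gave 2928, 1700, 419 and 519 besides 2643 with TMM, and shARID1B.3 (1536) gave 2870, 2650, 469 and 993. shARID1B.2 (631) gave 1185 at an FDR under 0.05, 255 with the size limit and 418 with only the compared groups. TMM over promoters, trended or GC offsets, no count filter, DESeq2 and 1 site per gene left all these counts within 1.5 times. A stricter limit counts fewer promoters by construction. The cause of the other shifts was not tested.

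With each library left out in turn, the counts ranged from 803 (without Control replicate 2) to 1352 higher and from 1017 to 1426 lower with the combinations, 145 to 633 and 519 to 832 with ARID1A silencing, and 228 to 748 and 368 to 767 with ARID1B silencing. They ranged from 616 to 1034 for combined against single silencing, 525 to 919 for ARID1A against ARID1B, 1650 to 2114 for shARID1A/B.2.3, 1634 to 2719 for shARID1A/B.4.2, 527 to 1333 for shARID1A.2 (527 without its replicate 1 and 600 without its replicate 3), 476 to 1128 for shARID1A.4 (476 without its replicate 1), 358 to 871 for shARID1B.2 (402 without Control replicate 2, 372 and 358 without its replicates 2 and 3) and 927 to 2054 for shARID1B.3 (946 and 927 without its replicates 1 and 2). The median promoter shift of 0.23 ranged from 0.18 to 0.25. Most of the highest counts arose without shARID1A/B.2.3 replicate 2.

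With a replicate block over all groups the combinations gave 1283 higher and 1353 lower, and this block changed the call of no named promoter. With the block and only the compared groups, added after the data were seen, the counts were 1501 and 1483, 838 and 993 for ARID1A silencing, and 295 and 405 for ARID1B silencing. Over 148 named promoters, the call was lost at 25 and gained at 7 with TMM over all sites, at 24 and 7 with total counts, at 13 and 2 with trended offsets and at 14 and 3 with GC offsets, and lost at 5 with DESeq2 and 8 with only the compared groups. RRM2 turned from -0.23 to 0.00 with total counts, MRPL46 from -0.2 to 0.03 with TMM over all sites and 0.04 with total counts, and PGK1 from 0.24 to -0.33 with trended offsets. The alternatives for tRNA promoters, CpG classes and gene lists, and the restriction to promoters with a GENCODE start within 1000 bases, were chosen after seeing the data. Promoters under 1 CPM gave 0 gains and 91 losses among 1483 by edgeR with the combinations, and 13 gains and 46 losses with TMM over all sites.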
